A study of Homo sapiens with 8 samples.

Results

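Homologous recombination and the Fanconi anaemia pathway are represented here by 35 genes, listed by name from their known roles and matched to the files through their Ensembl identifiers in GENCODE 29. They are 35 of the 60668 genes in the count files, and all 35 passed the filter of a CPM (the library's counts rescaled to a common total) above 1 in at least 4 of the 8 libraries, which left 15222 genes to test. The libraries were made from polyA+ RNA of D283-OMO cells, a derivative of the medulloblastoma line D283 MED that carries a lentiviral, doxycycline (DOX)-inducible and Flag-tagged OMOMYC transgene. OMOMYC is a dominant-negative form of the transcription factor MYC. The 4 OMO libraries came from untreated cells and the 4 OMO+DOX libraries from cells given DOX for 72 h, as 4 biological replicates of each. Both groups carry the transgene and were selected with hygromycin B. Whether the line descends from 1 clone is not given in the sources used here. RNA-Seq of parental cells given DOX was not analysed here, so the effects of OMOMYC and of DOX itself cannot be told apart. The comparison asks how the RNA of each repair gene differed between MYC-inhibited and untreated cells.

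Homologous recombination repairs a broken chromosome by copying the sister chromatid. Nucleases first trim the broken ends, in a step called resection, and BRCA1, PALB2 and BRCA2 then help the exposed strand to pair with the intact copy. The Fanconi pathway acts on crosslinks between the strands of DNA: a core complex attaches ubiquitin to FANCD2 and FANCI, and later steps hand the lesion to recombination. Many of these genes are transcribed mainly in S and G2 phase, when a sister chromatid is present. Inherited loss of BRCA2 or PALB2 is a known predisposition to medulloblastoma.

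Total counts per library ranged from 38390649 to 54020451. The lowest count of any member in any library was 144, and 3 counts, the limit used for a gene not detected, corresponded to 0.0581 to 0.0748 CPM, a limit that covers counting error only. All levels in the text are CPM scaled by edgeR's trimmed mean of M-values (TMM) method. MYC RNA, in which reads of the transgene cannot be told apart, stood at 939 ± 75.6 CPM (SD, n = 4) in OMO and 1123 ± 56.8 CPM in OMO+DOX (log2FC 0.26, SE 0.06, edgeR adjusted p = 0.00237). The known MYC targets CAD (log2FC -0.48, SE 0.05, edgeR adjusted p = 1.3e-06) and NCL (log2FC -0.44, SE 0.04, edgeR adjusted p = 1.2e-06) were downregulated. All 6 markers fixed for the line were detected in every library, at summed levels of 2720.0 to 2810.0 CPM in OMO and 1713 to 1853 CPM in OMO+DOX. Of 11 markers of immune, fibroblast, endothelial and glial cells, 9 lay below 1 CPM, and their sum was 25.7 to 26.5 CPM in OMO and 23.1 to 27.4 CPM in OMO+DOX. COL1A1 made up most of it, at 22.1 ± 0.613 CPM in OMO and 23.4 ± 1.81 CPM in OMO+DOX.

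OMO replicate 3 stood apart from the other untreated libraries. It held the lowest untreated value of 18 of the 35 genes, and of 38.0% of all genes tested. It also held the highest untreated value of some genes, such as XRCC3 and FANCE. Its level relative to the other untreated libraries tended to be lower in genes with longer annotated exons. Across the 35 genes, the deviation of this library from the mean of the other 3 had a Spearman correlation of -0.43 with exon length, against -0.48 across 15116 genes tested. These points share the same libraries, and genes are not independent replicates. ATM, whose annotated exons cover 23972 bases, lay 1.45-fold lower in this library than in the other 3. The part of this library in each result was measured by leaving it out. Without it, 26 genes were lower and 7 higher at an edgeR adjusted p below 0.05, as with all 8 libraries, and ATM fell below a log2FC of 1, at 0.95.

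**Figure D1:**
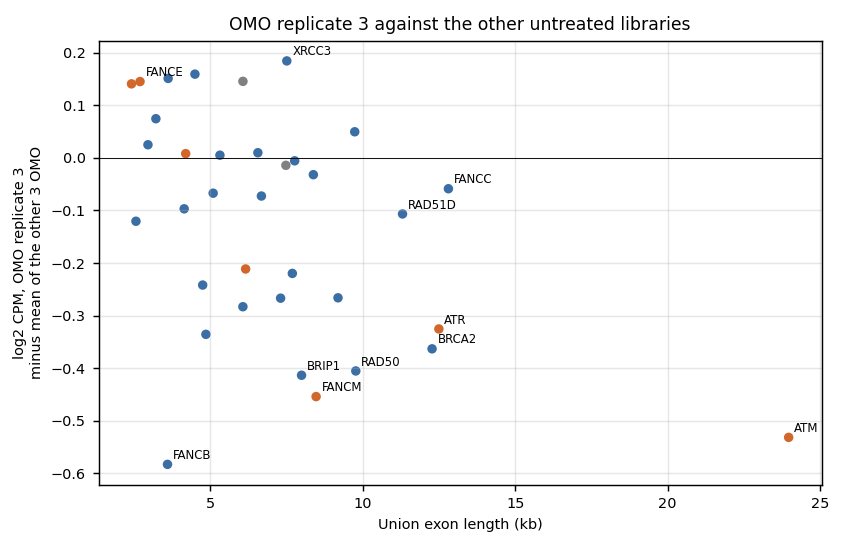
The x axis gives the annotated exon length of each of the 35 genes in kilobases and the y axis the log2 CPM of OMO replicate 3 minus the mean log2 CPM of the other 3 OMO libraries, with genes lower under DOX in blue, higher in orange and not called in grey. ATM, with the greatest exon length, lies at -0.53, and FANCB, with a short exon length and few counts, at -0.58.

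Most of the 35 genes were downregulated in OMO+DOX cells, and a smaller group was upregulated. At an edgeR adjusted p below 0.05, 26 genes were lower, beside 38.1% of all genes tested, and 7 were higher, beside 38.5% of all genes tested. RAD51B and RAD51C were not called. Of the 26 lower genes, 14 fell by more than 1 on the log2 scale, beside 9.81% of all genes tested, and of the 7 higher genes FANCM, FANCE and ATM rose by more than 1, beside 11.0%. The median log2FC was -0.71 over the 35 genes and 0.01 over all genes tested. In 24 genes every OMO+DOX value lay below every OMO value, beside 35.4% of all genes tested, and in 7 every OMO+DOX value lay above, beside 36.3%. For each of these 31 genes the two-sided exact permutation test gave p = 0.0286, the smallest that 4 against 4 libraries allow. Groups that do not overlap always give this value, so the test adds no evidence here. The study's threshold was taken from its methods, as an adjusted p below 0.001 with a log2FC above 2 in size. Its results text gives 0.01 for the adjusted p. At the threshold of the methods, 0 of the 35 genes were called by edgeR or by DESeq2, beside 7.12% of all genes tested. At an unadjusted edgeR p below 0.05 there were 33 of the 35, beside 11892 of the 15222 genes tested. An adjusted p below 0.001 was reached by 28 of the 35, a count that was not made over all genes tested.

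Genes of DNA replication and mitosis fell in the same libraries. All 14 genes of a fixed S phase list were lower, against 38.1% of all genes tested, with a median log2FC of -1.78, and their summed level was 2119 ± 88.6 CPM in OMO and 644 ± 14.7 CPM in OMO+DOX, a ratio of 0.304. RRM2, a subunit of the enzyme that makes deoxynucleotides (log2FC -2.66, SE 0.05, edgeR adjusted p = 1.3e-12), and CDT1, which licenses replication origins (log2FC -2.64, SE 0.08, edgeR adjusted p = 8.8e-11), fell most. All 14 genes of a G2/M list were lower as well (median log2FC -1.56), with a ratio of summed levels of 0.357 and the mitotic kinase AURKB (log2FC -2.59, SE 0.13, edgeR adjusted p = 5.5e-09) in front. The summed level of the 35 repair genes changed less, from 1392 ± 69.9 CPM to 1102 ± 51.9 CPM, a ratio of 0.792. Abundant genes weigh most in such a sum, and the median log2FC of the 35 genes was -0.71. The part of the S phase and G2/M change in the repair genes was not tested. In bulk RNA, fewer cells in a phase and less RNA per cell cannot be told apart.

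**Figure D2:**
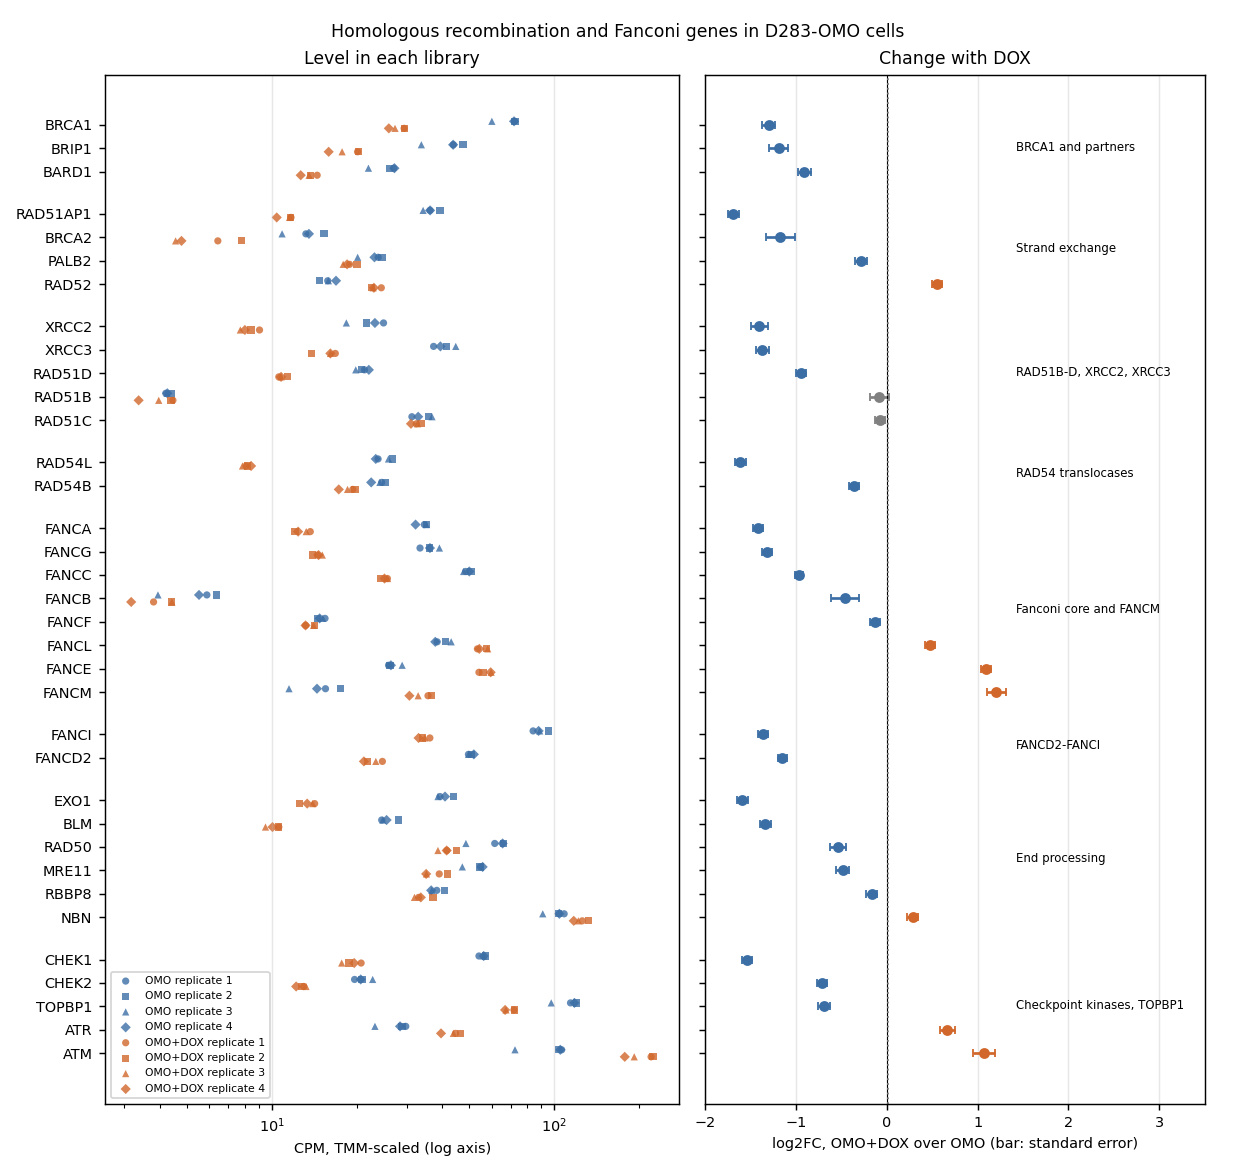
The left panel plots the TMM-scaled CPM of each of the 35 genes in each of the 8 libraries on a log axis (blue OMO, orange OMO+DOX, marker shape the replicate), and the right panel the log2FC with its standard error, blue for lower, orange for higher and grey for not called. Genes are grouped by role, and each role except BRCA1 and its partners, the RAD54 translocases and the FANCD2-FANCI pair holds genes that fell together with genes that rose or were not called.

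Because many of the genes fell together, their promoters were searched for short motifs. RefSeq promoter windows (GRCh38.p14, 250 bases before to 50 after an annotated start) were matched for 32 of the 35 genes, in 44 windows, but not for RAD54B, FANCI and NBN. No letters before the start were given for RBBP8, which counts among the 32 as a gene without a match. The E2F core, bound by the E2F factors that act at entry into S phase, was searched on both strands as the letters TTCCCGC, the letters TTGGCGC, the letters TTGCCGC or the letters TTCGCGC. Since TTGGCGC and the CCAAT box written as ATTGG share the letters TTGG, their matches can overlap. The E2F core matched in 50.0% of the windows of these genes, in 13.0% of all 35116 windows and in 18.6% of the 16230 windows of genes tested. By gene it matched in 19 of 32, in 11 of the 13 with a window that fell by more than 1 on the log2 scale, and in 3 of the 6 with a window that rose. A gene can have more than 1 window, so the shares of windows are no background for these counts. No share by gene was counted over all genes tested or over those that fell. The E-box CACGTG, a site read by MYC and MAX, matched in 6.82% of the windows, against 7.26% of all windows and 9.29% of those of genes tested. The CCAAT box, searched as CCAAT and ATTGG, matched in 40.9% of the windows against 34.6% of all windows and 34.7% of those of genes tested. The CHR element of late cell cycle promoters, searched as TTTGAA and TTCAAA, matched in 6.82% against 15.2% of all windows and 10.3% of those of genes tested. A match describes the letters only, and binding was not measured.

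**Figure D3:**
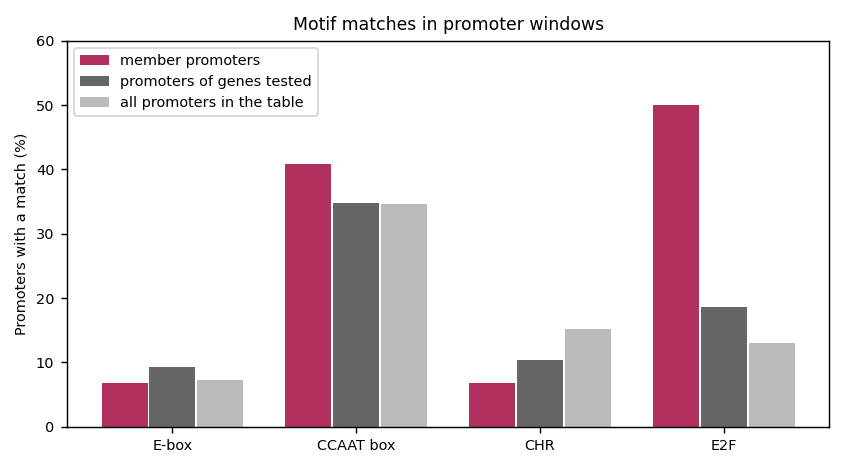
Bars give the percentage of promoter windows with at least 1 match to each motif on either strand, for the 44 windows of the 32 genes, the 16230 windows of genes tested and all 35116 windows. The E2F core stands at 50.0%, 18.6% and 13.0% in that order, while the other 3 motifs lie closer together.

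The 250 bases before the start are shown for 8 genes to set the change beside the letters. These 8 were picked by motif and direction of change, so they do not show how often the 2 go together. Capitals mark every match to the 4 motifs in these bases. RAD51AP1 (chr12:4538640-4538889 on the plus strand), RAD54L (chr1:46247438-46247687 on the plus strand), BRCA1 (chr17:43125365-43125614 on the minus strand) and BLM (chr15:90717096-90717345 on the plus strand) are shown as lower genes that hold both an E2F core and a CCAAT box before the start. XRCC3 (chr14:103715452-103715701 on the minus strand) is shown for its 5 CCAAT boxes. BRCA2 (chr13:32315258-32315507 on the plus strand), a lower gene with no E2F core in its window, is shown for its E-box. FANCM (chr14:45135680-45135929 on the plus strand) and ATM (chr11:108222817-108223066 on the plus strand) are shown as higher genes that lack an E2F core in these bases.
RAD51AP1: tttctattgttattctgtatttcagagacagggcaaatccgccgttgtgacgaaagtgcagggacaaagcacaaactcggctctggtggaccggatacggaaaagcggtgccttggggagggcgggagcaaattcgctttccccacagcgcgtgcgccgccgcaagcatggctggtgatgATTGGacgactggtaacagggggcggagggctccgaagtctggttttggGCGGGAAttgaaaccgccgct
RAD54L: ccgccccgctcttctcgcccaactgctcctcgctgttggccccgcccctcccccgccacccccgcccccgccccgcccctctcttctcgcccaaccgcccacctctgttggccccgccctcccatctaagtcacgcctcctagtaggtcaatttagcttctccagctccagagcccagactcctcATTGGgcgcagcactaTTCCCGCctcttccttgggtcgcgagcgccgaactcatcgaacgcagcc
BRCA1: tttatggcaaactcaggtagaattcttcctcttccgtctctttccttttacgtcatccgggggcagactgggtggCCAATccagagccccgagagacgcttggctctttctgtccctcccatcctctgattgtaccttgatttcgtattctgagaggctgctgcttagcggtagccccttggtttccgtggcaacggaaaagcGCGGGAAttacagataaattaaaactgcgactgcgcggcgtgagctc
BLM: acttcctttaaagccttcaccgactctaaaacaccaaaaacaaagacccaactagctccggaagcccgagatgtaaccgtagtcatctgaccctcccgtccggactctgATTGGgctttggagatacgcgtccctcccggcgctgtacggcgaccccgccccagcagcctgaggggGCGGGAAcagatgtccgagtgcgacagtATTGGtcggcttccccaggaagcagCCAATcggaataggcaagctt
XRCC3: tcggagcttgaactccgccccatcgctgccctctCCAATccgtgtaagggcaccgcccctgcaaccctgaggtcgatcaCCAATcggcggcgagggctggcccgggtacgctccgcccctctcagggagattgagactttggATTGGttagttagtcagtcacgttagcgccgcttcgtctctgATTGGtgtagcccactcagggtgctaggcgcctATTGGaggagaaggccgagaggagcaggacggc
BRCA2: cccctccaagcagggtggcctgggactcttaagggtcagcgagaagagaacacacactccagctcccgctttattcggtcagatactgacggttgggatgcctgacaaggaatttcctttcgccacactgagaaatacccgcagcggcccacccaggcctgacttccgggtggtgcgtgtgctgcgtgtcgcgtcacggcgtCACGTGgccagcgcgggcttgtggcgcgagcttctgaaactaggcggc
FANCM: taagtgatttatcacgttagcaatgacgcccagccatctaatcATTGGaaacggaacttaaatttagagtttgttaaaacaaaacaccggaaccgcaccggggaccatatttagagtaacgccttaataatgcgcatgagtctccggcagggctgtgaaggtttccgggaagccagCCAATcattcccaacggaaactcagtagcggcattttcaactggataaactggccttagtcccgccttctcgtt
ATM: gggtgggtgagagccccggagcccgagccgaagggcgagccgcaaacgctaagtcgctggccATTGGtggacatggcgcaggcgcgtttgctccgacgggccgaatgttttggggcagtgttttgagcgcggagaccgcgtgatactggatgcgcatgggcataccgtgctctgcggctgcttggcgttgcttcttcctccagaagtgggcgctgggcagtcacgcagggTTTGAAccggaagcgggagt
The E2F core of RAD51AP1 begins 21 bases before the start and that of BRCA1 47 bases before it, each as GCGGGAA, the complement of TTCCCGC read in reverse. In EXO1, XRCC2, BRIP1, BARD1, FANCF and FANCE the only E2F match in the window lies after the start. CHEK1 and BRCA2 were the 2 genes with a window that fell by more than 1 on the log2 scale and held no E2F match, while FANCE, FANCL and RAD52 rose and held 1 match each.

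BRCA1 and the 2 of its partners among the 35 genes were downregulated. BRCA1 (ENSG00000012048.22, chr17:43044295-43170245, minus strand), a ubiquitin ligase that steers breaks into recombination, stood at 72.3, 72.5, 60.1 and 72.0 CPM in OMO replicates 1 to 4 and at 29.4, 29.6, 27.3 and 25.9 CPM in OMO+DOX replicates 1 to 4. OMO replicate 3 was the lowest of the untreated libraries and still lay above every OMO+DOX library, so the groups did not overlap (log2FC -1.30, SE 0.07, edgeR adjusted p = 1.1e-08). BARD1, the obligate partner of BRCA1, went from 25.5 ± 2.43 to 13.6 ± 0.743 CPM (SD, n = 4; log2FC -0.91, SE 0.07, edgeR adjusted p = 3.9e-07). BRIP1, a helicase bound by BRCA1 and also a Fanconi gene, went from 42.2 ± 5.89 to 18.5 ± 2.10 CPM (log2FC -1.19, SE 0.11, edgeR adjusted p = 9.4e-07). Without OMO replicate 3 the log2FC of BRIP1 was -1.29. These 3 genes thus fell by between 1.88 and 2.47 fold.

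The genes of strand exchange, which help the resected strand to pair with the intact copy, changed unequally. RAD51AP1 (ENSG00000111247.14, chr12:4538798-4560048, plus strand), which stimulates strand invasion, had the largest fall of the 35 genes, from 36.3, 39.3, 34.3 and 36.3 CPM in the OMO libraries to 11.7, 11.6, 11.5 and 10.4 CPM in the OMO+DOX libraries. The lowest untreated library was 34.3 CPM and the highest treated 11.7 CPM (log2FC -1.69, SE 0.06, edgeR adjusted p = 2.6e-10, 3.23-fold lower). BRCA2 (ENSG00000139618.15, chr13:32315474-32400266, plus strand), which acts at the resected strand, gave 13.2, 15.3, 10.9 and 13.5 CPM in OMO and 6.43, 7.77, 4.55 and 4.78 CPM in OMO+DOX. The groups did not overlap, but treated replicates 1 and 2 lay above replicates 3 and 4, and its standard error was the largest of the 35 (log2FC -1.17, SE 0.16, edgeR adjusted p = 3.5e-05). This split of the treated libraries was seen in 17 of the 35 genes, BRCA2 among them, and was not counted over all genes tested. PALB2, the bridge between BRCA1 and BRCA2, went from 22.9 ± 1.93 to 18.8 ± 0.905 CPM (log2FC -0.28, SE 0.07, edgeR adjusted p = 0.00217), and this call was lost when libraries were scaled by size alone. RAD52, which anneals complementary strands, moved the other way, from 15.8, 14.7, 15.8 and 16.9 CPM to 24.4, 22.5, 22.8 and 23.0 CPM, with every treated library above every untreated one (log2FC 0.55, SE 0.05, edgeR adjusted p = 2.1e-06).

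Of RAD51B, RAD51C, RAD51D, XRCC2 and XRCC3, 5 related ATPases that form small complexes and assist strand exchange, 3 fell and 2 were not called. XRCC2 went from 22.0 ± 2.77 to 8.30 ± 0.567 CPM (log2FC -1.40, SE 0.09, edgeR adjusted p = 6.2e-08), and RAD51D, its partner, from 20.9 ± 0.940 to 10.9 ± 0.344 CPM (log2FC -0.95, SE 0.05, edgeR adjusted p = 1.6e-08). XRCC3 (ENSG00000126215.14, chr14:103697609-103715504, minus strand), which pairs with RAD51C, gave 37.4, 41.4, 44.8 and 39.5 CPM in OMO and 16.8, 13.8, 16.1 and 16.1 CPM in OMO+DOX, without overlap (log2FC -1.37, SE 0.07, edgeR adjusted p = 8.1e-09). The exons of KLC1 on the opposite strand cover 5756 bases, or 76.7%, of the annotated exons of XRCC3. KLC1 stood at 103 and 101 CPM in OMO and OMO+DOX, and the library kit marks strand, but whether counting used it is not stated, so reads from these bases may not have been told apart.

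RAD51C, present in several of these complexes, gave 31.3, 35.9, 36.9 and 32.9 CPM in OMO and 32.5, 33.8, 32.8 and 31.1 CPM in OMO+DOX, and the groups overlapped (log2FC -0.08, SE 0.06, edgeR adjusted p = 0.257). RAD51B had the lowest CPM of the 35 genes in OMO, at 4.28 ± 0.0909 CPM in OMO and 4.04 ± 0.500 CPM in OMO+DOX (log2FC -0.08, SE 0.10, edgeR adjusted p = 0.466). The directions of both genes turned when libraries were scaled by size alone, to log2FC values of 0.052 for RAD51C and 0.045 for RAD51B, still not called. The 2 RAD54 translocases, which remodel chromatin during strand exchange, were both lower. RAD54L (ENSG00000085999.13, chr1:46247688-46278473, plus strand) fell from 23.8, 26.7, 25.9 and 23.3 CPM to 8.08, 8.17, 7.86 and 8.43 CPM, and its treated libraries lay within a narrow range far below the untreated ones (log2FC -1.62, SE 0.06, edgeR adjusted p = 4.8e-10). RAD54L shares 25.1% of its exon bases with LRRC41 on the opposite strand, which stood at 100 CPM in OMO and 94.0 CPM in OMO+DOX and was not called. RAD54B fell less, from 24.1 ± 1.17 to 18.7 ± 1.08 CPM (log2FC -0.37, SE 0.06, edgeR adjusted p = 1.1e-04). It shares 59.1% of its exon bases with FSBP on the same strand, a gene that rose (log2FC 0.78), so the division of reads between these overlapping genes is uncertain.

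In the Fanconi core complex and its anchor FANCM, 5 genes fell and 3 rose. FANCA (ENSG00000187741.15, chr16:89737549-89816657, minus strand) and FANCG, which bind each other, fell together: FANCA from 34.6, 35.2, 35.2 and 32.2 CPM to 13.7, 12.1, 13.2 and 12.4 CPM (log2FC -1.42, SE 0.06, edgeR adjusted p = 6.5e-10) and FANCG from 36.3 ± 2.34 to 14.5 ± 0.491 CPM (log2FC -1.32, SE 0.06, edgeR adjusted p = 1.5e-09). FANCC, of the same complex, went from 49.2 ± 1.35 to 25.2 ± 0.621 CPM (log2FC -0.97, SE 0.04, edgeR adjusted p = 1.9e-09). The untreated and treated libraries of these 3 genes were far apart, and the change did not rest on OMO replicate 3 (log2FC -1.41, -1.28 and -0.99 without it). FANCA shares 23.6% of its exon bases with ZNF276 on the opposite strand, which rose (log2FC 0.33).

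FANCE (ENSG00000112039.4, chr6:35452356-35467103, plus strand), the subunit that contacts FANCD2, was upregulated, with 25.9, 26.2, 28.9 and 26.4 CPM in OMO and 54.1, 55.9, 59.7 and 59.5 CPM in OMO+DOX. All treated libraries lay far above the untreated ones (log2FC 1.09, SE 0.05, edgeR adjusted p = 4.5e-09, 2.14-fold higher). FANCM (ENSG00000187790.11, chr14:45135940-45200890, plus strand), a DNA translocase that recruits the core complex to stalled forks, rose from 15.5, 17.5, 11.5 and 14.4 CPM to 35.7, 36.7, 32.9 and 30.7 CPM (log2FC 1.21, SE 0.11, edgeR adjusted p = 9.0e-07). OMO replicate 3 was the lowest library, and without it the log2FC was 1.10. FANCL, the ubiquitin ligase of the complex, rose from 40.1 ± 2.42 to 55.8 ± 2.35 CPM (log2FC 0.48, SE 0.05, edgeR adjusted p = 7.2e-06). FANCL shares 18.7% of its exon bases with VRK2 on the opposite strand, which fell (log2FC -1.30).

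FANCB and FANCF were at the edge of the test. FANCB, a scaffold of the catalytic module encoded on the X chromosome, gave 5.88, 6.37, 3.94 and 5.51 CPM in OMO and 3.81, 4.41, 4.42 and 3.17 CPM in OMO+DOX. The groups overlapped through OMO replicate 3 (log2FC -0.46, SE 0.15, edgeR adjusted p = 0.0172), and the adjusted p was 0.0515 without OMO replicate 2 and 0.0762 with libraries scaled by size alone. FANCF, an adaptor of the complex, went from 14.9 ± 0.418 to 13.6 ± 0.550 CPM, without overlap (log2FC -0.13, SE 0.05, edgeR adjusted p = 0.0379). Its adjusted p lay above 0.05 in 9 of the 14 other settings, among them 0.0502 by DESeq2 and 0.0667 with the replicate number as a block. FANCD2 and FANCI, the substrates of the core complex, both fell. FANCD2 gave 49.6, 50.8, 49.7 and 51.9 CPM in OMO and 24.6, 21.8, 23.3 and 21.2 CPM in OMO+DOX (log2FC -1.15, SE 0.05, edgeR adjusted p = 2.8e-09). FANCI (ENSG00000140525.17, chr15:89243949-89317261, plus strand) gave 84.1, 95.5, 88.8 and 88.0 CPM and 36.2, 34.2, 34.8 and 33.0 CPM, again without overlap (log2FC -1.37, SE 0.05, edgeR adjusted p = 5.0e-10).

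Of the 6 genes of end processing, 5 fell and 1 rose. EXO1 (ENSG00000174371.17, chr1:241847967-241895148, plus strand), the nuclease of long-range resection, was among the largest falls, from 39.4, 44.0, 38.7 and 41.0 CPM to 14.2, 12.5, 13.9 and 13.3 CPM, without overlap (log2FC -1.59, SE 0.06, edgeR adjusted p = 4.0e-10). BLM, a helicase that opens DNA for resection and dissolves joint molecules, went from 25.7 ± 1.65 to 10.2 ± 0.512 CPM (log2FC -1.34, SE 0.06, edgeR adjusted p = 2.8e-09). The complex that first binds a broken end changed less. MRE11, its nuclease, went from 53.1 ± 3.92 to 37.8 ± 3.20 CPM (log2FC -0.49, SE 0.07, edgeR adjusted p = 5.7e-05) and RAD50, its ATPase, from 60.5 ± 8.17 to 41.7 ± 2.53 CPM (log2FC -0.54, SE 0.09, edgeR adjusted p = 1.9e-04), while NBN, its link to ATM, rose from 102 ± 7.50 to 124 ± 6.29 CPM (log2FC 0.29, SE 0.06, edgeR adjusted p = 0.00109). RAD50 shares 79.7% of its exon bases with the same-strand gene AC116366.3, so its counts depend on how reads were divided. RBBP8, also known as CtIP, which starts resection with MRE11, went from 38.2 ± 1.99 to 34.0 ± 2.27 CPM with overlapping groups (log2FC -0.17, SE 0.06, edgeR adjusted p = 0.0195), and lost its call with libraries scaled by size alone (adjusted p = 0.526) and without any 1 of 3 libraries, OMO replicate 2 (0.0557), OMO+DOX replicate 1 (0.0555) or OMO+DOX replicate 3 (0.0666).

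Of the 5 checkpoint genes, 2 rose and 3 fell. ATM (ENSG00000149311.18, chr11:108222484-108369102, plus strand), the kinase activated by chromosome breaks, gave 106, 104, 72.6 and 105 CPM in OMO and 220.2, 224, 192 and 178 CPM in OMO+DOX. Every treated library lay above every untreated one, with OMO replicate 3 far below the other 3 untreated libraries (log2FC 1.07, SE 0.12, edgeR adjusted p = 5.8e-06). ATR, the kinase activated by single-stranded DNA at forks, rose from 27.6 ± 2.99 to 43.7 ± 2.92 CPM (log2FC 0.67, SE 0.08, edgeR adjusted p = 1.1e-05), with a log2FC of 0.59 without OMO replicate 3. The other 3 checkpoint genes of the 35 fell. CHEK1 (ENSG00000149554.13, chr11:125625136-125676255, plus strand), the effector kinase of ATR, gave 54.1, 57.2, 56.2 and 56.2 CPM in OMO and 20.7, 18.7, 17.7 and 19.5 CPM in OMO+DOX, with all treated libraries far below the untreated ones (log2FC -1.55, SE 0.05, edgeR adjusted p = 2.5e-10). CHEK2, the effector kinase of ATM, went from 20.9 ± 1.30 to 12.8 ± 0.436 CPM (log2FC -0.71, SE 0.06, edgeR adjusted p = 3.9e-07). TOPBP1, the activator of ATR, went from 112 ± 10.2 to 69.6 ± 2.80 CPM (log2FC -0.69, SE 0.07, edgeR adjusted p = 1.6e-06). The named pseudogenes of CHEK2, FANCD2, MRE11, RAD51AP1 and RBBP8, 8 in all, had mean levels of at most 0.0055 CPM in either group.

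Since partners of 1 complex did not always move together, the ratio of CPM between 12 pairs of known partners was computed within each library, where scaling cancels. The pairs were chosen after the values had been seen and are given as a description. In 9 of the 12 pairs the ratios of the 4 OMO libraries did not overlap those of the 4 OMO+DOX libraries. Among single genes tested, the levels of 36.3% were higher and of 35.4% lower without overlap, so this count is no result about the pairs. The ratio of FANCE to FANCC, neighbours in the core complex, went from 0.546 ± 0.0405 in OMO to 2.28 ± 0.117 in OMO+DOX (SD, n = 4). The ratio of ATR to its activator TOPBP1 went from 0.245 ± 0.0107 in OMO to 0.628 ± 0.0269 in OMO+DOX. RAD51C to XRCC3 went from 0.841 ± 0.0186 in OMO to 2.09 ± 0.244 in OMO+DOX, and NBN to MRE11 from 1.92 ± 0.0470 in OMO to 3.29 ± 0.130 in OMO+DOX. In these 4 pairs the partner named first gained on the other. The ratio of BRCA2 to PALB2 went from 0.576 ± 0.0371 in OMO to 0.311 ± 0.0653 in OMO+DOX, and that of BRCA1 to BARD1 from 2.71 ± 0.0606 in OMO to 2.07 ± 0.0670 in OMO+DOX. FANCI to FANCD2 shifted less, from 1.76 ± 0.0884 in OMO to 1.52 ± 0.0482 in OMO+DOX. The ratios overlapped for FANCA to FANCG, MRE11 to RAD50 and RAD51B to RAD51C, which averaged 0.949, 0.884 and 0.125 in OMO and 0.884, 0.906 and 0.124 in OMO+DOX.

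To compare levels between genes, CPM were divided by the length of each gene's annotated exons in kilobases. In OMO the highest levels per kilobase were those of FANCL (16.6 ± 1.01, SD, n = 4), NBN (16.5 ± 1.22), TOPBP1 (15.4 ± 1.40) and RAD51AP1 (14.3 ± 0.814), neighbours that lay within 1 SD of the next. FANCI followed at 11.5 ± 0.611, below RAD51AP1 by more than the sum of their SDs. The lowest were BRCA2 (1.08 ± 0.148) and RAD51B (0.572 ± 0.0122). In OMO+DOX the order differed. FANCL (23.1 ± 0.976), FANCE (21.3 ± 1.03) and NBN (20.2 ± 1.02) led, at more than the sum of their SDs above TOPBP1 (9.53 ± 0.384) and ATM (8.49 ± 0.931). FANCE moved from rank 7 to rank 2, ATM from 25 to 5 and RAD51AP1 from 4 to 12, while BRCA2 (0.479 ± 0.123) and RAD51B (0.541 ± 0.0668) were the lowest, within 1 SD of each other. Ranks depend on the length used: with the longest annotated transcript in place of all exons, ATM was number 20 in OMO, BRCA2 was already below RAD51B in OMO, and FANCL stayed first.

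**Figure D4:**
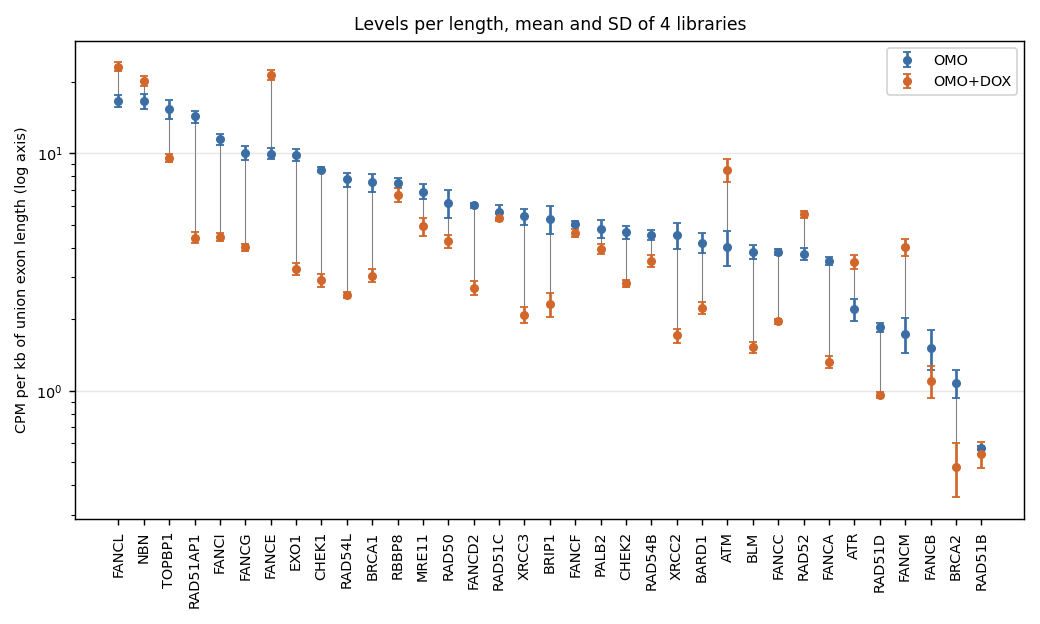
Points give the mean CPM per kilobase of annotated exons and bars the SD of 4 libraries, on a log axis, for OMO in blue and OMO+DOX in orange, with genes ordered by their level in OMO and a grey line joining the 2 means. FANCE, ATM and FANCM rise above their untreated means, while RAD51AP1, RAD54L and FANCI fall.

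The other genes of recombination and the Fanconi pathway, were counted in lists fixed by role. Of all genes tested, 38.1% were lower and 38.5% higher at an adjusted p below 0.05, and the counts of each list are to be read against these shares. Of 20 other recombination genes tested, 13 were lower and 4 higher, with a median log2FC of -0.41. MND1, a partner of the meiotic gene DMC1, fell (log2FC -1.49, SE 0.09, edgeR adjusted p = 3.7e-08), while MCM9 (log2FC 0.78, SE 0.07, edgeR adjusted p = 6.8e-07) and HELQ (log2FC 0.54, SE 0.06, edgeR adjusted p = 3.0e-06), helicases of recombination, rose. DMC1 and RAD51AP2 did not pass the filter on low counts. Of 13 other Fanconi genes, 9 were lower and 3 higher, with a median log2FC of -0.23. UBE2T, which supplies the ubiquitin used by FANCL, fell from 44.2 ± 4.42 to 15.9 ± 1.11 CPM (log2FC -1.48, SE 0.08, edgeR adjusted p = 7.9e-09), and ERCC4, a nuclease that cuts beside the crosslink, rose from 15.2 ± 1.58 to 29.4 ± 1.95 CPM (log2FC 0.95, SE 0.08, edgeR adjusted p = 4.4e-07).

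Of 14 genes that resolve joint molecules, 10 were lower and 2 higher. RMI2, a partner of BLM, was the only gene of these repair lists to pass the study's threshold (log2FC -2.17, SE 0.06, edgeR adjusted p = 5.8e-11), and the helicase RECQL4 also fell (log2FC -1.65, SE 0.08, edgeR adjusted p = 3.8e-09), whereas EME2 rose (log2FC 0.66, SE 0.06, edgeR adjusted p = 4.9e-07). In break signalling, 14 of 23 genes were lower and 5 higher, led by the histone variant H2AX (log2FC -1.92, SE 0.10, edgeR adjusted p = 1.0e-08) and the fork protector TIMELESS (log2FC -1.54, SE 0.05, edgeR adjusted p = 6.1e-11). TP53BP1 (log2FC 0.43, SE 0.07, edgeR adjusted p = 1.3e-04) and SHLD2 (log2FC 0.52, SE 0.06, edgeR adjusted p = 5.3e-06), which limit resection, were higher. Of other genes with that role in the list, named after their values were seen, SHLD3 was lower (log2FC -0.36, SE 0.09, edgeR adjusted p = 0.00254), while SHLD1 and RIF1 were not called. End joining, the alternative to recombination, had 7 of 11 genes lower and 1 higher, LIG4 (log2FC 0.54, SE 0.07, edgeR adjusted p = 3.1e-05).

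In the other repair pathways the median log2FC was -0.48 in mismatch repair (5 of 7 genes lower, 0 higher), -0.34 in base excision repair (14 of 20 lower, 4 higher) and -0.07 in nucleotide excision repair (8 of 18 lower, 7 higher). The flap nuclease FEN1 (log2FC -1.76, SE 0.07, edgeR adjusted p = 4.5e-10) and the ligase LIG1 (log2FC -1.56, SE 0.06, edgeR adjusted p = 3.6e-10), both also replication enzymes, were the largest falls of the base excision list. Of 126 other repair genes tested over these lists, 80 were lower and 26 higher, and 17 fell by more than 1 on the log2 scale against 0 that rose by as much. Of all genes tested, 9.81% fell and 11.0% rose by more than 1. Among 14 p53 target genes, 11 were higher and 3 lower, against 38.5% and 38.1% of all genes tested (median log2FC 0.81), led by GADD45A (log2FC 3.32, SE 0.06, edgeR adjusted p = 7.2e-13). No test of a list was run.

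**Figure D5:**
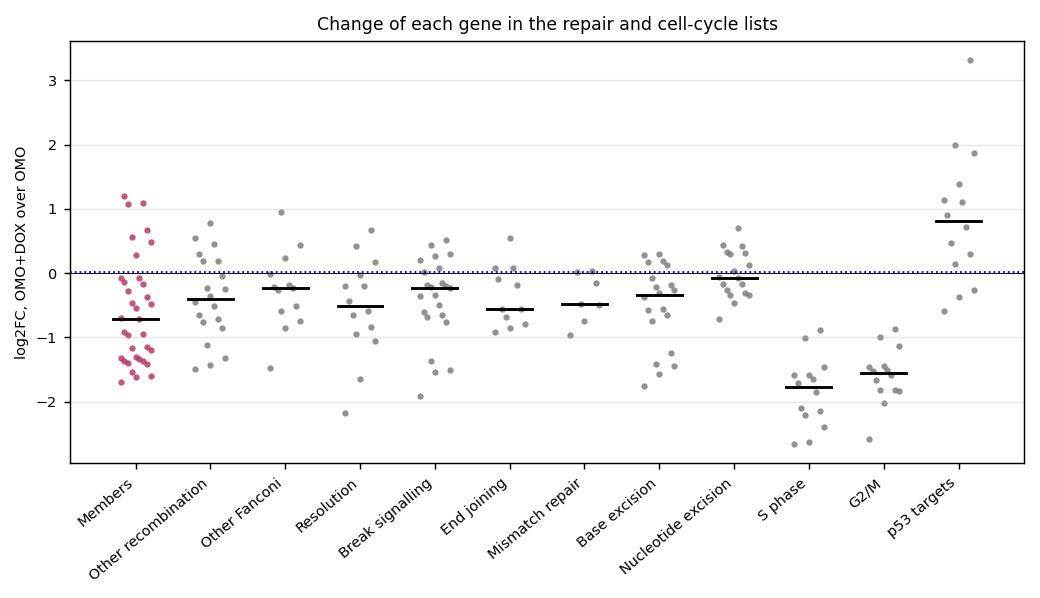
Each point is the log2FC (OMO+DOX over OMO) of 1 gene, black bars are list medians and the dotted blue line is the median of all genes tested, 0.01. The 35 genes (median -0.71, red) spread on both sides of 0, all S phase and G2/M genes lie below 0, and 11 of 14 p53 targets lie above 0.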

How the data were processed

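RNA-Seq of polyA+ RNA from D283-OMO cells was analysed, 4 OMO and 4 OMO+DOX libraries, grouped by their titles. Trim Galore, STAR and RSEM were the tools of the authors, with GRCh38 and GENCODE release 32. Each file deposited by the authors holds the RSEM expected counts of 1 library, without normalization. RSEM splits reads that match several genes, and 21 of the 35 genes had a fractional count in at least 1 library. The library kit (TruSeq Stranded mRNA) marks strand, and whether counting used it is not given in the sources used here.

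Expected counts were rounded and filtered (CPM above 1 in 4 or more of 8 libraries), and 15222 genes were tested by the quasi-likelihood test of edgeR 4.0.16 (R 4.3.3, TMM, Benjamini-Hochberg adjustment over these genes, no covariates). The SE is the absolute log2FC over the root of F. Scripts were tested on simulated data. Exon lengths and gene coordinates are those of GENCODE 29 on GRCh38, which names 99.3% of the genes tested. Promoters are from RefSeq (GRCh38.p14). Python 3.11.15, numpy 2.4.6, pandas 2.3.3 and scipy 1.17.1 were used.

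All 35 members are named. From each other list, up to 2 rises and 2 falls with the largest log2FC at an adjusted p below 0.05 could be named, plus MYC, CAD and NCL. Markers, overlapping genes and neighbours were named after their values were seen. The members, lists and tests were chosen with earlier results of these data known. Alternatives were another scaling (DESeq2 size factors, or library size alone), DESeq2 1.42.0 with its Wald test, other filters on low counts, a replicate block, each library left out, and the longest transcript as length. A planned search for a protein motif in 5 of the members was not run, and 1 gene is not reported here. Of the listed genes, 1 had no match in the annotation.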

Additional observations from a re-analysis of the deposited data

Results flagged for a closer look

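In each of the 35 genes and both groups, the highest and lowest of the 4 libraries were compared with Dixon's 95% critical value for the gap to the nearest library over the range. Of 70 groups tested, 5 passed, where chance gives about 1 in 20, or 3.5. Of these 5, 4 concern OMO replicate 3. BRCA1 stood at 60.1 CPM in OMO replicate 3, against 72.0 to 72.5 CPM in the other untreated libraries. ATM stood at 72.6 CPM in the same library against 103.6 to 106 CPM, and MRE11 at 47.2 CPM against 54.5 to 55.7 CPM. FANCE was higher there, at 28.9 CPM against 25.9 to 26.4 CPM. RAD51AP1 stood at 10.4 CPM in OMO+DOX replicate 4, against 11.5 to 11.7 CPM in the other treated libraries. Without OMO replicate 3 the log2FC was -1.37 for BRCA1, -0.55 for MRE11, 0.95 for ATM and 1.13 for FANCE, all still called at an edgeR adjusted p below 0.05. The cause of the deviation of this library was not tested.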

How the results depend on the processing

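The counts of members lower and higher at an adjusted p below 0.05 were 26 and 7, and kept within 22 to 26 and at 7 under all alternatives run, with 24 to 26 lower when 1 library was left out. The 14 falls above a log2FC of 1 remained 14 in number throughout, and the 3 rises became 2 without OMO replicate 3, where ATM lay at 0.95. Scaling by library size alone moved the median log2FC of all genes tested from 0.01 to 0.14 and that of the members from -0.71 to -0.59, and left 22 members lower. Under it RAD51B (0.045) and RAD51C (0.052) turned upward without being called, PALB2, FANCB, FANCF and RBBP8 lost their calls, and 1 other repair gene rose by more than 1, against 0. Without a filter on low counts, 2 other repair genes fell at the study's threshold, against 1. The median level of the members per kilobase in OMO was 5.29 CPM with all exons and 7.84 CPM with the longest transcript. FANCF, FANCB and RBBP8 were the members whose calls changed when a library was left out. With the replicate number as a block, 25 members were lower and 7 higher, and of the members' calls it changed that of FANCF. The sample titles do not say whether the numbers pair the samples. Correlations of same-numbered OMO and OMO+DOX libraries, taken on deviations from group means, ranged from -0.27 to 0.34. Those of other pairs ranged from -0.41 to 0.51, and 0 untreated libraries correlated best with their own number. With 4 libraries per group, these correlations cannot decide whether the samples were paired. Small changes of RAD51B and FANCB, the members with the lowest CPM, may not be resolved at this depth, which was not tested. The protein motif search was not run.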

Other observations

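Several of these genes start close to a gene read in the opposite direction. In GENCODE 29, 15 of the 35 had such a protein-coding neighbour with its start within 1000 bases. There were 16 neighbours in all, of which 11 were tested. The start of each gene was taken as the outermost start among its annotated transcripts. By edgeR at an adjusted p below 0.05, 4 neighbours were lower, 3 higher and 4 not called, and 0 fell by more than 1 on the log2 scale. Of all genes tested 38.1% were lower and 38.5% higher, so these counts are no result about neighbours. The pairs that fell together were PALB2 with DCTN5 (log2FC -0.17, SE 0.05), MRE11 with ANKRD49 (log2FC -0.15, SE 0.05) and CHEK2 with HSCB (log2FC -0.24, SE 0.09). Called in opposite directions were FANCM, which rose, and FKBP3 (log2FC -0.54, SE 0.07), XRCC3, which fell, and ZFYVE21 (log2FC 0.35, SE 0.06), and FANCB, which fell, and MOSPD2 (log2FC 0.48, SE 0.09). RAD51AP1, the largest fall among the 35, starts 290 bases from C12orf4, which was not called at 18.5 ± 0.975 CPM in OMO and 19.8 ± 1.25 CPM in OMO+DOX (log2FC 0.10, SE 0.06). The outermost start of BRCA1 lies 236 bases from NBR1, also not called (log2FC -0.05, SE 0.05). The BRCA1 bases shown above precede another, inner start. ATM starts 158 bases from NPAT, a regulator of histone genes, which was not called either (log2FC -0.12, SE 0.09). Neighbours were chosen by position among protein-coding genes, and noncoding genes were not counted.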
